A study of Homo sapiens with 10 samples.

Results

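A set of 10 genes of the epithelial-mesenchymal transition (EMT) was followed by RNA sequencing across 10 libraries from H441 cells, a human line established from a lung adenocarcinoma. The 10 genes were found by symbol among 62709 genes with read counts, and comprised 5 EMT transcription factors (ZEB1, ZEB2, SNAI1, SNAI2, TWIST1), 2 mesenchymal proteins (VIM, CDH2) and 3 guardians of the epithelial state (GRHL2, ESRP1, OVOL1). Per the labels, 3 libraries came from H441 cells in which the TET1 gene had been knocked out with CRISPR-Cas9 (KO), and 2 from H441 cells transiently transfected with a plasmid for full-length human TET1 (OE). Another 2 libraries, titled Lipo, were labelled as untreated wild type, with the title unexplained, and 3 were untreated wild-type cells (WT). The labels do not say whether KO was 1 clone, which promoter drove the plasmid, or when after transfection OE cells were taken. All groups were grown in medium with 10% fetal bovine serum. TET1 oxidises methylated cytosine in DNA, and the comparisons ask how its loss or gain bears on these genes.

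In EMT, epithelial cells loosen their junctions and take up a motile, mesenchymal form. ZEB, SNAIL and TWIST proteins drive it by repressing epithelial genes such as E-cadherin, while vimentin (VIM) and N-cadherin (CDH2) mark the mesenchymal side. GRHL2 and OVOL1 are transcription factors that keep epithelial genes on and ZEB1 down, ESRP1 is an RNA-binding protein that selects epithelial splice forms, and microRNAs of the miR-200 family and ZEB1 repress each other. Lung adenocarcinoma lines are known to lie at different points between both states.

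The miR-200 microRNAs and their matching sites are shown because the transcripts of ZEB1 and ZEB2 hold more such sites than those of the other members. The microRNAs themselves were not measured here. In the mature RefSeq sequences (GRCh38.p14, 5′ to 3′) the seed, bases 2 to 8, is in capitals, and the family falls into 2 seed groups that differ by 1 base.
hsa-miR-200c-3p: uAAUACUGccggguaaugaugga
hsa-miR-200b-3p: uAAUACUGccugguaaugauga
hsa-miR-429: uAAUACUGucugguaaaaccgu
hsa-miR-141-3p: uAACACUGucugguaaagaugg
hsa-miR-200a-3p: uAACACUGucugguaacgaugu

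The 3′ untranslated region of ZEB1, 2549 bases in exon 9 of 9, held 6 matches to CAGTATT and 3 to CAGTGTT, the complements of both seeds on the transcript's strand. Of 1183 genes with a 3′ untranslated region within 10% of that length, ZEB1 included, 46.8% held at least 1 match. The 0.0845% that held as many was ZEB1 alone. ZEB2 held 9 matches in 5370 bases, ESRP1 2, SNAI2 and GRHL2 1 each, and SNAI1, TWIST1, VIM, CDH2 and OVOL1 none. A match in letters is not a tested site. A pair of ZEB1 sites, 1 for each seed group, read as follows on the plus strand of GRCh38, with the match in capitals.
ZEB1 site at chr10:31528562-31528584: tgtcttcaaacctggCAGTATTa
ZEB1 site at chr10:31528782-31528804: tgagatttgatttaaCAGTGTTa

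The VIM start site and the main CDH2 start site are shown because TET1 acts on cytosine in CG pairs, and 1 of these genes was read in every library while the other was silent. Both windows run 5′ to 3′ from 250 bases before to 50 after a RefSeq start site (GRCh38.p14), with CG pairs in capitals. The VIM window lies on the plus strand of chromosome 10 and held 10 CG pairs. The CDH2 window lies on the minus strand of chromosome 18 and held 23, against a median of 14 over 35116 such windows. Neither window held the E-box CACCTG or CAGGTG (each the other's reverse complement) to which ZEB and SNAIL factors bind, which 20.6% of all windows held. DNA methylation was not measured here.
VIM at chr10:17227991-17228290: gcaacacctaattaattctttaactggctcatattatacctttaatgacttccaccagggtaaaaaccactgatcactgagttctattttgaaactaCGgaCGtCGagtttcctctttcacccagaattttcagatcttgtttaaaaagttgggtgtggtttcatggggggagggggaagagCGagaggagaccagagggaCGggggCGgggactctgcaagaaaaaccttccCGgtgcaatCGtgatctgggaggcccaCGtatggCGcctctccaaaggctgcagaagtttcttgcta
CDH2 at chr18:28177081-28177380: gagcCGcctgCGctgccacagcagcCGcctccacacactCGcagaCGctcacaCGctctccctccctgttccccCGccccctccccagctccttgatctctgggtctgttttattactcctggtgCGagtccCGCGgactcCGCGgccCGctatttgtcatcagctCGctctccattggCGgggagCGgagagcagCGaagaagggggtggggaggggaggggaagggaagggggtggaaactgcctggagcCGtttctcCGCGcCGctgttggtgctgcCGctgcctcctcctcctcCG

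Total counts ran from 20994462 to 25981097 per library, and mitochondrially encoded genes took on average 6.17% of them in KO, 4.81% in OE, 8.38% in Lipo and 5.71% in WT. TET1 itself had 4, 0 and 8 reads in the KO libraries, 17883 and 20805 in OE, 0 and 1 in Lipo, and 2, 7 and 0 in WT, so that both KO and WT lay near 0 and these reads cannot check the KO label (log2 change 0.42, SE 0.87, adjusted p = 0.813). WT 1 stood apart from its group. The chi-square of its counts over genes, per degree of freedom, was 38.6 against WT 2 and 42.0 against WT 3, while WT 2 and WT 3 differed by 6.01. The KO libraries differed from each other by 36.1 to 58.9, the OE pair by 4.81 and the Lipo pair by 5.88. Of 16 lung epithelial markers, 12 were over 1 CPM in each group, SCGB1A1 had no reads, SFTPC had 2 reads, both in WT 1, and SCGB3A2 had none in OE or Lipo. Of the 13 tested, 4 fell in KO, among them the surfactant gene SFTPB (-1.97) and the phosphate transporter SLC34A2 (-1.497). In OE 2 fell and 1 rose, and in Lipo 3 fell. By the test described below, 12.6% of all genes were called in KO, 12.3% in OE and 3.70% in Lipo. Of 10 fibroblast markers, 5 (DCN, PDGFRA, PDGFRB, THY1, POSTN) were at 0 in every group. Of 7 endothelial markers, CLDN5 was at 0, and the sums were 91.9 to 109 CPM in KO, 90.2 to 102 in OE, 83.3 to 87.2 in Lipo and 115 to 119 in WT. These sums came mainly from KDR, which ran from 80.2 CPM in Lipo 2 to 115 CPM in WT 3. The 7 leukocyte markers summed to 0.971 to 2.51 CPM in KO, 10.9 to 12.6 in OE, 4.28 to 5.204 in Lipo and 2.59 to 3.59 in WT, with CD79A called lower in KO (-2.23) and ITGAM called higher in OE (4.30).

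Of the 10 genes, 3 were below detection. TWIST1, a factor that induces EMT in development and metastasis, and CDH2, the N-cadherin of mesenchymal cells, had 0 reads in all 10 libraries. With 3 reads as the floor over a group, that allows up to 0.0420 CPM (reads per 1e6 of each library's TMM-adjusted total) in KO, 0.0714 in OE, 0.0653 in Lipo and 0.0416 in WT. ZEB2, the paralog of ZEB1, had 5 reads in all, 0 in KO, 2 in OE 1, 2 in Lipo 2 and 1 in WT 3. These genes were not tested, and the other 7 had reads in every library. Intervals and floors cover counting error only.

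Per kilobase of exon, ESRP1 and GRHL2 stood above the other 8 genes in every group, and VIM, ZEB1 and the 3 undetected genes stood lowest in OE, Lipo and WT. ESRP1 was the most abundant member, at 78.4 ± 10.4 CPM per kilobase in KO (SD, n = 3), 55.9 ± 0.590 in OE (n = 2), 57.8 ± 0.0295 in Lipo (n = 2) and 54.6 ± 3.89 in WT (n = 3). GRHL2 came next, with group means from 14.5 CPM per kilobase in WT to 19.9 in Lipo. SNAI1 followed at 6.75 to 11.0 CPM per kilobase, and OVOL1 at 3.25 to 6.42. SNAI2 was at 0.609 ± 0.0623 CPM per kilobase in KO, beside ZEB1 there (0.632 ± 0.121), but at 3.45 in OE, 3.19 ± 0.159 in Lipo and 3.81 ± 2.21 in WT. In WT the spread of SNAI2 covered the level of OVOL1 (3.62 ± 0.579), and ZEB1 (0.801 ± 0.0140) and VIM (0.774 ± 0.195) did not differ beyond their spread. VIM was the lowest detected member in KO (0.147 ± 0.0200) and Lipo (0.305 ± 0.0819).

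**Figure D1:**
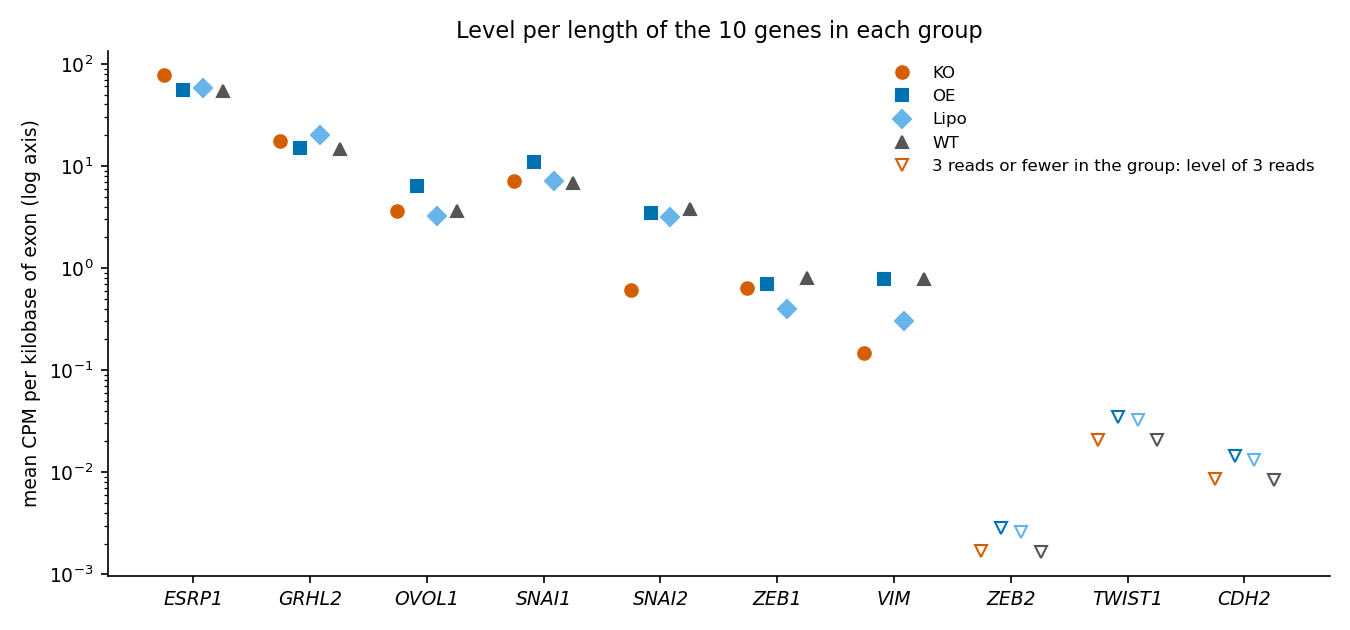
Mean level of each of the 10 genes in CPM per kilobase of exon (log axis), with 1 symbol per group in the order KO, OE, Lipo, WT. Open triangles mark groups with 3 reads or fewer, drawn at the level of 3 reads. ESRP1 leads in every group, SNAI2 in KO falls to the level of ZEB1, and ZEB2, TWIST1 and CDH2 lie at or under the floor.

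In the cells labelled as TET1 knockout, set against wild type, SNAI2 and VIM were lower and ESRP1 was higher in all 3 libraries, while ZEB1, SNAI1, GRHL2 and OVOL1 did not pass the test. The test was edgeR's quasi-likelihood fit to all 10 libraries, with Benjamini-Hochberg adjusted p under 0.05 over 15832 genes. It called 3 of the 7 tested members, where 12.6% of all genes were called (5.13% higher and 7.45% lower). The 3 calls held under each of the 21 alternatives tried.

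SNAI2 encodes SLUG, a SNAIL-family repressor of E-cadherin that also marks basal epithelial cells (ENSG00000019549, chromosome 8, 48917604 to 48921740, minus strand, GRCh38). It had 45, 59 and 44 reads in KO 1, 2 and 3, or 1.99, 2.30 and 1.91 CPM, against 498, 223 and 198 reads in WT, or 21.6, 8.52 and 8.68 CPM. The groups did not overlap, which held for 27.6% of all genes, and WT 1 lay far above the other 2 WT libraries. SNAI2 was 6.22-fold lower in KO (log2 change -2.64, SE 0.32, edgeR adjusted p = 7.44e-05). Without WT 1 the log2 change was -2.05 (adjusted p = 8.87e-06), a smaller fold with the same call. With WT 1 and KO 1 both left out, an alternative chosen after seeing the data, it was -2.03.

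VIM encodes vimentin, the intermediate filament protein of mesenchymal cells (ENSG00000026025, chromosome 10, 17228259 to 17237593, plus strand). Its reads were few in every group. It had 15, 19 and 20 reads in KO, or 0.662, 0.742 and 0.866 CPM, against 119, 88 and 79 reads in WT, or 5.15, 3.36 and 3.46 CPM. Every KO library lay below every WT library, and VIM was 5.24-fold lower in KO (log2 change -2.39, SE 0.33, adjusted p = 0.000193). The KO libraries also lay below both Lipo libraries (1.87 and 1.28 CPM), and against WT and Lipo taken as 1 control group of 5 the log2 change was -1.99 (adjusted p = 0.00757), a fold smaller than that against WT alone.

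The VIM gene shares 641 exon bases with VIM-AS1 on the other strand. VIM-AS1 had 1, 2 and 15 reads in KO and 4, 3 and 4 in WT. Whether counting used strand is not given in the sources used here. The summed level of the fibroblast markers was 70.9 to 77.7 CPM in KO, 343 to 351 in OE, 170 to 183 in Lipo and 177 to 289 in WT. Like VIM it was lower in KO than in WT and higher in OE than in Lipo, but it overlapped between Lipo and WT, where VIM did not. That sum came mainly from COL1A1 and LUM, the 2 markers tested, and the 5 markers named above as absent stayed at 0. The leukocyte sum, given above, was also lower in KO than in WT and higher in OE than in Lipo. The part of these markers in the VIM results was not tested. Fewer cells of a kind and less RNA per cell cannot be told apart in bulk libraries.

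ESRP1, the epithelial splicing regulator (ENSG00000104413, chromosome 8, 94641074 to 94707466, plus strand), moved the other way. It stood at 427, 392 and 328 CPM in KO, against 286, 263 and 249 CPM in WT. Every KO library was above every WT library, with KO 3 the nearest to WT. ESRP1 was 1.44-fold higher in KO (log2 change 0.52, SE 0.12, adjusted p = 0.00842). Over the 21 alternatives the adjusted p ran from 0.000572 to 0.0495, the highest without WT 3.

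The 4 other tested members gave no call in KO. SNAI1, or SNAIL, the founding member of its family, had 9.40, 13.99 and 12.3 CPM in KO and 6.71, 12.3 and 15.2 CPM in WT, ranges that overlap (log2 change 0.07, SE 0.25, adjusted p = 0.903). ZEB1, a zinc finger repressor of epithelial genes, had 6.40, 5.66 and 4.33 CPM in KO and 7.01, 6.99 and 6.79 CPM in WT. All 3 KO values of ZEB1 were below WT, but the difference did not pass (-0.34, SE 0.21, adjusted p = 0.318). GRHL2 had 108, 112 and 97.3 CPM in KO and 90.4, 86.3 and 87.0 CPM in WT (0.27, SE 0.11, adjusted p = 0.125), and passed only without KO 3 (adjusted p = 0.0436). OVOL1 averaged 13.99 ± 3.32 CPM in KO and 13.95 ± 2.23 CPM in WT (SD, n = 3 each, log2 change 0.00, SE 0.20, adjusted p = 0.994).

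The balance of the 2 SNAIL genes is given as a description, with no test. SNAI2 took 17.4%, 14.1% and 13.4% of the summed SNAI1 and SNAI2 reads in KO 1, 2 and 3, against 76.3%, 41.0% and 36.4% in WT 1, 2 and 3. It took 41.9% and 35.9% in OE, and 46.7% and 48.5% in Lipo. All KO libraries thus lay below the other 7, and WT 1 lay above all others, with SNAI2 at its highest and SNAI1 at its lowest. The exact (Clopper-Pearson) 95% interval was 72.8% to 79.5% in WT 1 and 36.8% to 45.3% in WT 2, so counting error did not cover the difference between these WT libraries. The share is one of reads, with exon lengths of 3.392 kilobases for SNAI2 and 1.686 for SNAI1.

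**Figure D2:**
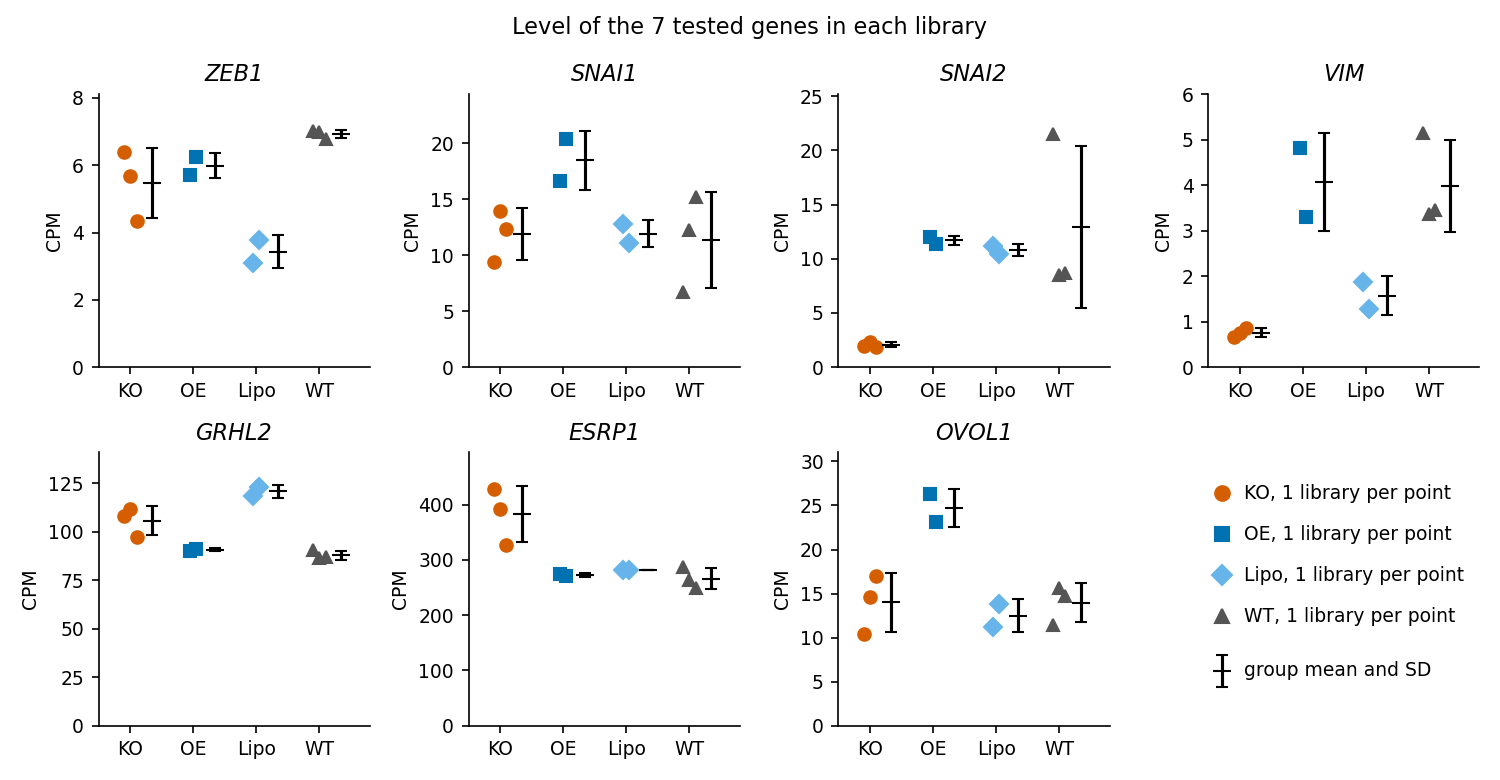
CPM of the 7 tested genes in each library, with groups in the order KO, OE, Lipo, WT and the group mean and SD as a black bar beside each. SNAI2 and VIM are low in all 3 KO libraries, ESRP1 is high there, OVOL1 is high in both OE libraries, ZEB1 is low in both Lipo libraries, and WT 1 stands alone at the top of SNAI2.

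In the cells given the TET1 plasmid, set against Lipo, VIM and OVOL1 were higher, 1 gene of the mesenchymal side and 1 of the epithelial side. They were the 2 of 7 tested members called, where 12.3% of all genes were called (6.79% higher and 5.53% lower). With 2 libraries a group, 65.6% of all genes did not overlap between the groups.

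VIM had 98 and 72 reads in OE, or 4.83 and 3.31 CPM, against 45 and 28 reads in Lipo, or 1.87 and 1.28 CPM. It was 2.57-fold higher in OE (log2 change 1.36, SE 0.38, adjusted p = 0.0279). The value depended on the control. Set against WT, where VIM averaged 3.99 ± 1.01 CPM, OE at 4.07 ± 1.07 CPM gave a log2 change of 0.03 (adjusted p = 0.962), and against the joint group of Lipo and WT one of 0.43 (adjusted p = 0.525).

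OVOL1 encodes a zinc finger repressor that guards the epithelial state (ENSG00000172818, chromosome 11, 65787022 to 65797219, plus strand). It had 26.3 and 23.2 CPM in OE against 11.2 and 13.9 CPM in Lipo, and was 1.98-fold higher (log2 change 0.98, SE 0.24, adjusted p = 0.0148). Both OE libraries lay above all of the other 8. With WT as the control the log2 change was 0.82 (adjusted p = 0.0115), and against the joint group of Lipo and WT it was 0.89 (adjusted p = 0.0071). The antisense transcript AP001266.1, which shares 1044 exon bases with OVOL1, had at most 2 reads in a library. Both the VIM and the OVOL1 call were lost without any 1 of OE 1, OE 2, Lipo 2 and Lipo 3, with adjusted p from 0.0508 to 0.241, and VIM did not pass with replicate number as a block (adjusted p = 0.0693).

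In the main fit the other members did not pass in OE. ZEB1 had 5.72 and 6.25 CPM in OE and 3.08 and 3.78 CPM in Lipo (log2 change 0.80, SE 0.26, adjusted p = 0.0587). With WT as control the ZEB1 value was -0.21 (adjusted p = 0.539), the opposite sign. SNAI1 had 16.6 and 20.3 CPM in OE, above the 8 other libraries, and 12.8 and 11.1 CPM in Lipo (0.63, SE 0.30, adjusted p = 0.202). SNAI2 had 12.0 and 11.4 CPM in OE and 11.2 and 10.4 CPM in Lipo (0.11, SE 0.36, adjusted p = 0.881). GRHL2 had 90.3 and 91.4 CPM in OE and 119 and 123 CPM in Lipo (-0.41, SE 0.13, adjusted p = 0.0546), but with WT as control its value was 0.05. The lack of a call held, with the same sign, in 11 of 21 alternatives for GRHL2, 16 for ZEB1 and 18 for SNAI1. Each of these genes passed in some of the others. ESRP1 averaged 273 ± 2.88 CPM in OE and 282 ± 0.144 CPM in Lipo (SD, n = 2 each, log2 change -0.05, SE 0.14, adjusted p = 0.877).

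Lipo was compared with WT because both carry the wild-type label. The comparison shares the WT libraries with that of KO and the Lipo libraries with that of OE. ZEB1 and VIM were lower and GRHL2 higher in Lipo, 3 of 7 members, where 3.70% of all genes were called (1.32% higher and 2.38% lower) and 43.6% did not overlap.

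ZEB1 (ENSG00000148516, chromosome 10, 31318495 to 31529814, plus strand) had 74 and 83 reads in Lipo, or 3.08 and 3.78 CPM, against 162, 183 and 155 reads in WT, or 7.01, 6.99 and 6.79 CPM. It was 2.02-fold lower in Lipo (log2 change -1.01, SE 0.24, adjusted p = 0.0316), and both Lipo libraries were the lowest of the 10. The antisense gene ZEB1-AS1, which shares 366 exon bases with ZEB1, was not called (6.12 ± 0.346 CPM in Lipo and 5.35 ± 0.489 CPM in WT). MIR200CHG, the host transcript of miR-200c and miR-141, averaged 2.28 CPM in Lipo and 1.97 CPM in WT and was not called in any comparison.

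VIM, at the CPM given above, was 2.52-fold lower in Lipo than in WT (log2 change -1.33, SE 0.35, adjusted p = 0.0483). GRHL2, a pioneer factor at epithelial enhancers (ENSG00000083307, chromosome 8, 101492432 to 101669726, plus strand), had 119 and 123 CPM in Lipo against 90.4, 86.3 and 87.0 CPM in WT. It was 1.37-fold higher (log2 change 0.46, SE 0.12, adjusted p = 0.0465), and both Lipo libraries were the highest of the 10. The 3 calls all ended when any 1 library of OE, Lipo or WT was left out, with adjusted p from 0.051 to 0.442. Without KO 2 only that of ZEB1 passed. ESRP1 (log2 change 0.08), SNAI1 (0.07), SNAI2 (-0.25) and OVOL1 (-0.16) gave no call, and the values of SNAI1 and SNAI2 changed sign without WT 1 (-0.20 and 0.33).

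**Figure D3:**
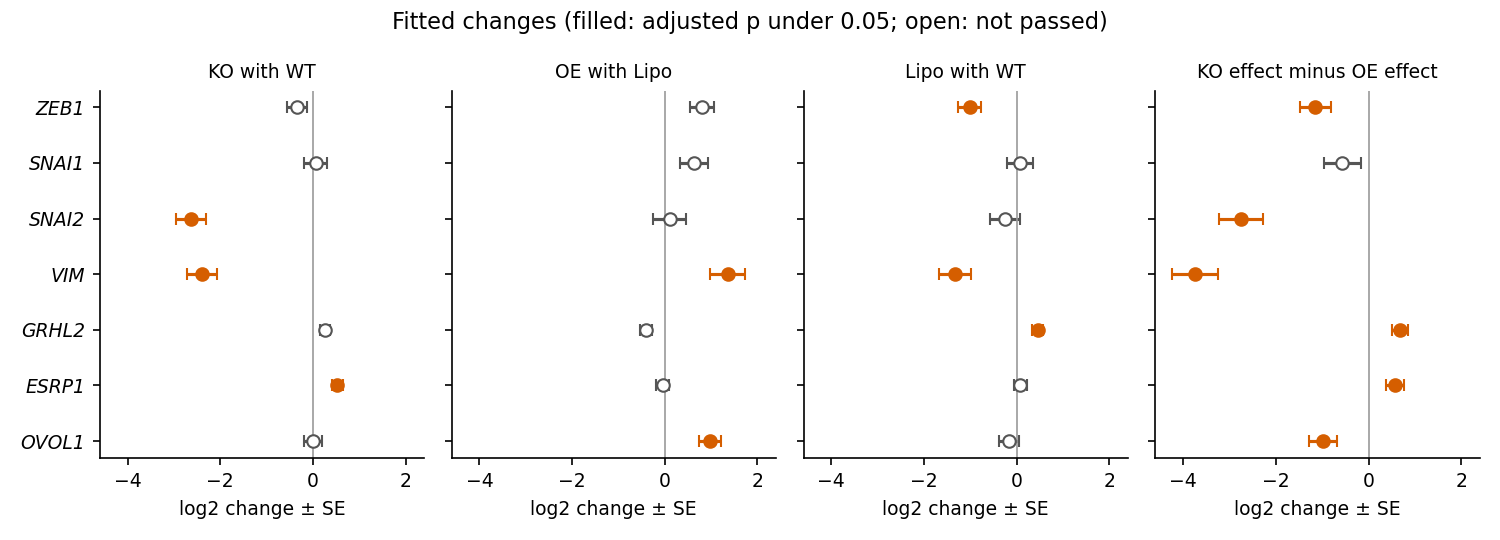
Fitted log2 change with its SE for the 7 tested genes in 4 panels: KO against WT, OE against Lipo, Lipo against WT, and the KO effect minus the OE effect. Filled points passed edgeR's adjusted p under 0.05, and SNAI2 and VIM lie farthest from 0 in KO, at -2.64 and -2.39.

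The KO effect minus the OE effect passed its own test for 6 of the 7 tested members, where 16.6% of all genes passed (7.16% with a higher and 9.47% with a lower KO effect). It was negative for VIM (-3.75), SNAI2 (-2.75), ZEB1 (-1.15) and OVOL1 (-0.98), and positive for GRHL2 (0.68) and ESRP1 (0.57). Only those of VIM and SNAI2 passed without any 1 of OE 1, OE 2, Lipo 2 and Lipo 3. With WT in place of Lipo as the control for OE, an alternative chosen after seeing the data, the difference was -2.42 for VIM and -2.50 for SNAI2, and those of ZEB1 (-0.13) and GRHL2 (0.22) did not pass.

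Across the 10 libraries SNAI2 and VIM varied together (Pearson r = 0.87 of log2 CPM). ESRP1 ran against both, with r = -0.811 for SNAI2 and -0.818 for VIM, and GRHL2 ran against ZEB1 (-0.758). SNAI1 followed neither SNAI2 (-0.0259) nor ZEB1 (-0.0573), but did follow OVOL1 (0.764). These are descriptions over 10 libraries in 4 groups, and the libraries of a group share its treatment. Among 10467 genes whose mean log2 CPM reached 2 or more, the pattern most like that of SNAI2 was that of PARVA, a focal adhesion protein (r = 0.981), and that most like VIM was that of MYL9, a myosin light chain of contractile cells (0.968). The closest were DYRK2, a protein kinase, to ESRP1 (0.99), SMAGP to GRHL2 (0.935) and RHOG, a small GTPase, to OVOL1 (0.959). ZFYVE1 was closest to SNAI1 (0.942) and ZNF655 to ZEB1 (0.944).

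The wider set of EMT-inducing transcription factors held 24 genes, of which 16 were tested and 4, TWIST1 among them, had no reads at all. In KO, 4 fell and 1 rose, with a median log2 change of -0.21 (0.00 over all genes). The share of all genes called was 12.6% in KO, 12.3% in OE and 3.70% in Lipo. Besides SNAI2, the forkhead factor FOXQ1 fell to 11.0 ± 1.95 CPM in KO, against 72.7 ± 14.5 CPM in WT (SD, n = 3 each, log2 change -2.72, adjusted p = 1.05e-07). The chromatin protein HMGA2 (-0.77) and the zinc finger factor KLF8 (-1.10) fell as well. The 1 that rose, RUNX2 (0.53, adjusted p = 0.0442), is named outside the rule. No gene of the list rose without any 1 of OE 1, OE 2, Lipo 2, Lipo 3, WT 2 and WT 3. In OE, SOX9 (1.67) and ETS1 (0.92) rose, while ID1 (-0.85), an inhibitor of basic helix-loop-helix factors, and FOXQ1 (-0.75) fell. In Lipo, SOX4 (0.80) and, outside the rule, ID1 (0.59) rose, and FOXQ1 (-1.09), ZEB1 and HMGA2 (-0.65) fell. FOXQ1 averaged 20.4 CPM in OE and 34.2 CPM in Lipo.

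Epithelial identity factors, the group of GRHL2, ESRP1 and OVOL1, had 20 tested members. Over all genes, 12.6% were called in KO, 12.3% in OE and 3.70% in Lipo. In KO 2 rose and 0 fell, a share near that over all genes, with a median log2 change of 0.055 (0.00 over all genes). They were ESRP1 and the grainyhead factor GRHL3, which stood at 10.4 ± 2.30 CPM in KO and 6.06 ± 0.579 CPM in WT (log2 change 0.77, adjusted p = 0.0199). By the same edgeR test in OE 5 rose and 3 fell. KLF4, a zinc finger factor of differentiated epithelium, rose to 56.0 ± 0.703 CPM in OE, against 22.5 ± 1.26 CPM in Lipo (1.31), and GRHL3 (1.22) and OVOL1 rose with it. The splicing regulator RBM47 fell (-0.59), and outside the naming rule TP63 (0.66) and TFAP2C (0.64) rose and OVOL2 (-0.57) and FOXA2 (-1.31) fell. The paralogs OVOL1 and OVOL2 thus had changes of opposite sign in OE. In Lipo 2 rose, FOXA2 (1.80) and GRHL2. The paralog of ESRP1, ESRP2, gave no call in KO (204 ± 8.15 CPM in KO and 192 ± 4.67 CPM in WT, log2 change 0.09, adjusted p = 0.629).

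Among 30 epithelial genes known as targets of repression by ZEB and SNAIL factors, 3 fell and 1 rose in KO, a share near the 12.6% called over all genes. E-cadherin, CDH1, fell to 686 ± 73.7 CPM in KO, against 1151 ± 39.4 CPM in WT (log2 change -0.75, SE 0.11, adjusted p = 0.000331). The desmosome protein DSP fell to 117 ± 15.5 CPM in KO, against 362 ± 16.3 CPM in WT (-1.63), and periplakin, PPL, by 0.94 on the log2 scale. The 1 that rose was MAL2 (0.66), a protein of apical transport. The median over the list was -0.11, against 0.00 over all genes. Without WT 1, 7 fell, without KO 3, 5 fell, and without KO 1, 3 rose. Without WT 1 and KO 1 together, 7 fell and 3 rose. In OE 1 fell (PATJ, -0.74), and in Lipo 1 rose (TJP3, 0.86) and 1 fell (DSP, -0.55), while 28 gave no call. Under any alternative, at most 11 rose and 7 fell in OE, and at most 9 rose and 6 fell in Lipo. At an unadjusted edgeR p under 0.05, 3 were higher and 5 lower in OE, and 7 higher and 2 lower in Lipo. Over all genes, 12.3% were called in OE and 3.70% in Lipo.

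Of 24 cofactors and turnover enzymes of EMT factors, 2 fell in KO, where 12.6% of all genes were called. They were the ubiquitin ligase subunits BTRC (-0.61) and FBXL14 (-0.55), both known to act on SNAIL proteins, and with a library left out the number was 0 (without WT 2) to 2. In OE the corepressor enzymes HDAC1 (-0.55) and KDM1A (-0.42) fell, neither of them called without any 1 of OE 1, OE 2, Lipo 2 and Lipo 3, and in Lipo none was called by edgeR, with at most 3 in either direction under any alternative and 2 higher and 2 lower at an unadjusted p under 0.05. Of 14 splice targets and partners of ESRP, 3 had lower total RNA in KO. They were CD44, the hyaluronan receptor, with 2, 0 and 4 reads in KO against 390, 265 and 248 in WT, ARHGEF11 (-1.01) and MBNL2 (-0.60). Splice forms were not measured here. The share of all genes called was 12.3% in OE and 3.70% in Lipo. CD44 was also lower in Lipo (-1.63), and by edgeR no gene of the list was called in OE, with at most 4 lower and 2 higher under any alternative and 1 lower and 1 higher at an unadjusted p under 0.05.

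Vimentin was compared with the other intermediate filament genes. Of 15 tested, 4 fell in KO and 1 rose, where 12.6% of all genes were called. The linker plectin, PLEC, fell to 338 ± 112 CPM in KO, against 965 ± 282 CPM in WT (-1.52), and KRT7 (-0.46) and, outside the rule, SYNM (-0.83) fell with VIM, while the hair keratin KRT81 rose (0.72). Without any 1 of KO 2, WT 2 and WT 3, 2 fell. The main simple keratins KRT8 (2636 ± 644 CPM in KO and 2969 ± 240 CPM in WT) and KRT18 (2105 ± 456 CPM in KO and 2254 ± 8.40 CPM in WT) gave no call. In OE 5 rose and 1 fell, where 12.3% of all genes were called. KRT17, a keratin of stressed and basal epithelium, stood at 13.6 ± 1.47 CPM in OE and 0.599 ± 0.377 CPM in Lipo (4.50), and KRT81 at 29.8 ± 1.74 CPM in OE and 5.36 ± 0.0969 CPM in Lipo (2.48). KRT7 (0.63) and KRT80 (0.72, outside the rule) rose with VIM, and the lamin LMNB1 fell (-0.66). Without any 1 of OE 1, OE 2, Lipo 2 and Lipo 3, 2 rose, and without OE 1 or Lipo 3 none fell. In Lipo VIM alone was called, where 3.70% of all genes were.

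Of 9 tested cadherins and catenins, CDH1 and beta-catenin, CTNNB1 (-0.37), fell in KO, and CDH11, a cadherin of mesenchymal cells, rose (0.64). The share of all genes called was 12.6% in KO, 12.3% in OE and 3.70% in Lipo. CDH11 stood at 291, 273 and 208 CPM in KO and 171, 159 and 164 CPM in WT, so that 1 mesenchymal cadherin was well expressed while CDH2 had no reads. No gene of this list was called by edgeR in OE or Lipo, where at most 2 passed in either direction under any alternative. At an unadjusted p under 0.05, 1 was lower in OE and 0 in Lipo.

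Of 21 mesenchymal structural and adhesion genes, 13 fell in KO and CDH11 alone rose, with a median log2 change of -0.88 (0.00 over all genes). Of all genes tested, 7.45% were called lower and 5.13% higher in KO. In OE the shares were 5.53% lower and 6.79% higher, and in Lipo 2.38% lower and 1.32% higher. The mesenchymal genes called lower in KO were as follows. Fibronectin, FN1 (-2.36), collagen I, COL1A1 (-1.86), and tenascin, TNC (-1.66), were among those that fell, beside CD44 and VIM. In OE 6 rose, among them the integrin ITGA5 (1.60) and the receptor kinase AXL (2.003), and 2 fell, S100A4 (-1.26) and, outside the rule, LOXL2 (-0.59). AXL stood at 9.37 and 10.1 CPM in OE, 2.91 and 1.91 CPM in Lipo, and 5.45, 8.40 and 8.72 CPM in WT. Over 21 alternatives its log2 change in OE ran from 0.37 to 2.33, and that of ITGA5 from 1.37 to 1.85. In Lipo 4 fell, VIM, CD44, AXL (-1.63) and caveolin, CAV1 (-1.06), and 0 rose. Of 18 genes of the TGF-beta pathway, a main inducer of SNAI2 and ZEB1 in epithelia, 8 fell and 1 rose in KO. The receptor TGFBR2 (-0.96), the corepressor TGIF1 (-0.69) and the activin subunit INHBA (-1.96) were among those that fell, and TGIF2 (0.78) rose. In OE 4 rose and 0 fell, with INHBA at 13.6 ± 0.805 CPM in OE and 0.133 ± 0.0700 CPM in Lipo, besides SMURF1 (0.72), SMAD3 (0.59) and TGFB2 (1.37). In Lipo INHBA (-3.50), SMURF2 (-0.84) and TGFB2 (-1.45) fell. With a library left out, 1 to 8 mesenchymal genes, 1 to 7 identity factors and 1 to 5 TGF-beta genes rose in OE, the fewest without 1 of the OE or Lipo libraries. In KO 12 to 14 mesenchymal genes and 6 to 8 TGF-beta genes fell. In Lipo 0 to 7 mesenchymal genes, 0 to 4 TGF-beta genes and 0 to 4 EMT factors fell, with 0 of each without Lipo 3. Against Lipo and WT as 1 control group, 5 TGF-beta genes fell in KO.

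**Figure D4:**
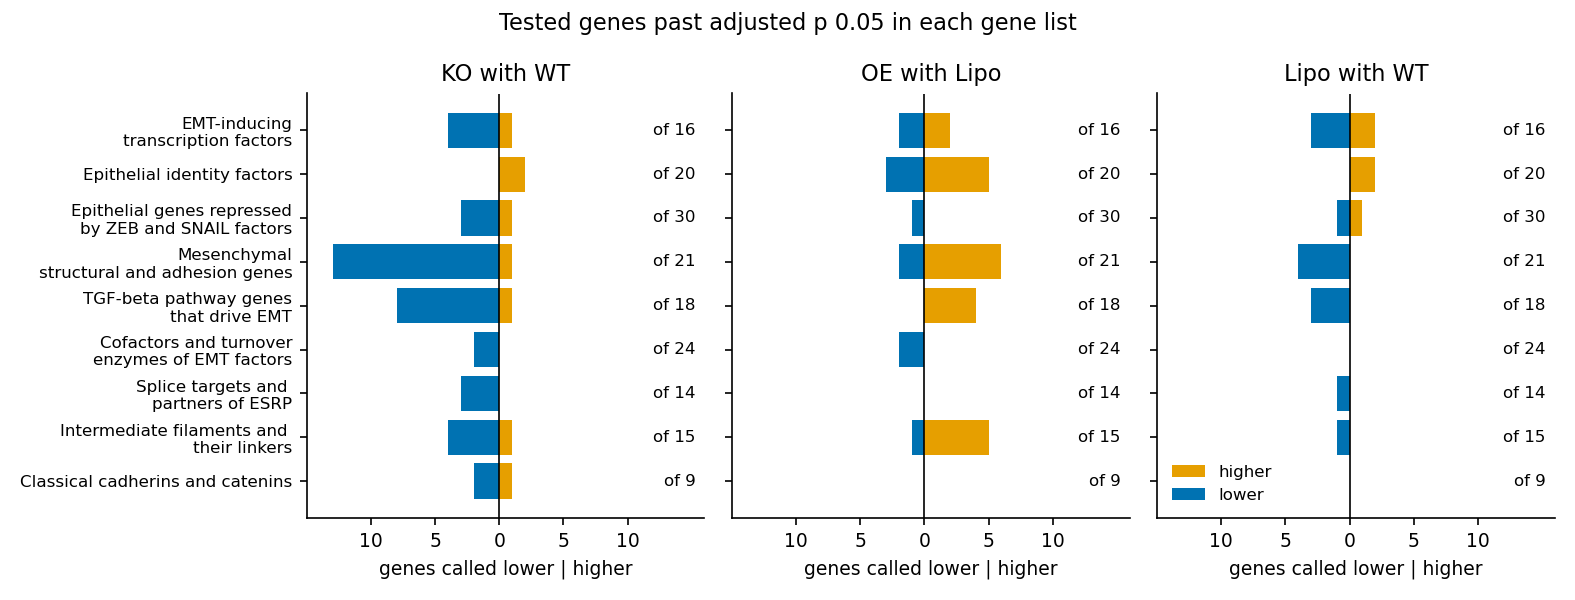
Number of tested genes called lower (left of 0) and higher (right of 0) at edgeR adjusted p under 0.05 in 9 gene lists, for KO against WT, OE against Lipo and Lipo against WT, with the number tested at the right. The mesenchymal list has 13 genes lower in KO, and the list of epithelial genes repressed by ZEB and SNAIL factors has 3 lower and 1 higher. Over all genes, 7.45% were lower and 5.13% higher in KO.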

How the data were processed

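The deposited table held the authors' raw read counts per gene, which carry no normalization. The submitters' processing notes name HISAT2 2.1.0, featureCounts, FastQC, edgeR and GRCh38, with no role or order. Of 62710 entries, 1 had no values. The table also held 2 columns matching no sample, a further Lipo and a further OE column, and these were not used. Per the labels, libraries were made from 1.0 µg of total RNA with a stranded low-input total RNA kit.

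Counts were fitted with edgeR 4.0.16 (R 4.3.3): filterByExpr on the 4 groups (15832 genes), TMM scaling and a robust quasi-likelihood model of all 10 libraries with 6 residual degrees of freedom. Tests were two-sided. The labels do not say that replicates were separate cultures, so p-values measure the spread between these libraries, which may be technical. The fit was checked on simulated data. Exon lengths came from GENCODE release 29, and promoters and microRNAs from RefSeq, where VIM, ZEB1, ZEB2 and CDH2 were found.

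The 10 genes and the lists were chosen with earlier results of these data known. From each list up to 4 called genes with the smallest p are named. The alternatives tried were DESeq2 1.42.0, RLE factors, unscaled library sizes, no filter, a stricter filter (1 CPM in 3 libraries, 100 reads in all), no mitochondrially encoded genes, only the groups compared, replicate number as a block, other controls, and each library left out.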

Additional observations from a re-analysis of the deposited data

Results flagged for a closer look

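The KO effect (KO against WT) and the OE effect (OE against Lipo) were compared by a test of their difference, and 6 of the 7 tested members passed it (edgeR adjusted p under 0.05), where 16.6% of all genes did (7.16% higher and 9.47% lower). A negative difference means a lower value of the KO effect. VIM differed by -3.75 on the log2 scale (SE 0.50, adjusted p = 0.000116), with -2.39 in KO and 1.36 in OE, and each library lay on its group's side. SNAI2 differed by -2.75 (SE 0.48, adjusted p = 0.00122), with -2.64 in KO and 0.11 in OE. These 2 differences passed under each of 19 alternatives. The size for VIM depended on the control: with WT in place of Lipo as the control for OE, chosen after seeing the data, it was -2.42 (adjusted p = 0.000101), and that for SNAI2 was -2.50 (adjusted p = 6.85e-05).

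The others depended on single libraries or on the control. ZEB1 differed by -1.15 (adjusted p = 0.0295), OVOL1 by -0.98 (0.0419), GRHL2 by 0.68 (0.0136) and ESRP1 by 0.57 (0.0479). None of these 4 passed without any 1 of OE 1, OE 2, Lipo 2 and Lipo 3. With WT as the control for both effects, OVOL1 (-0.82, adjusted p = 0.00748) and ESRP1 (0.49, 0.00961) passed, and ZEB1 (-0.13, 0.691) and GRHL2 (0.22, 0.171) did not. For ZEB1 and GRHL2 neither effect alone was called. For SNAI1 the difference was -0.56 (adjusted p = 0.358).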

How the results depend on the processing

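In KO the number of members called was 3 in every alternative except 4 without KO 3 (3 to 4 with a library left out). In OE the 2 calls became 5 with only the groups compared or without WT 1 and KO 1 together, 1 with Lipo and WT joined or WT alone as control, and 0 to 4 with a library left out. In Lipo the 3 calls became 0 to 3 with a KO or WT library left out. They became 2 with RLE factors, unscaled library sizes, no filter, no mitochondrially encoded genes, or only the groups compared. Of 20 alternatives, the call held in 13 for ZEB1, 10 for GRHL2 and 7 for VIM. The 6 differences between the KO and the OE effect became 2 to 6 with a library left out and 4 with WT as the control for both effects. The cause was not tested.

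No value that changed sign passed the test. In KO, SNAI1 ran from -0.20 to 0.33 with a library left out and was -0.0633 without WT 1 and KO 1. OVOL1 ran from -0.16 to 0.18, and was -0.0027 with no filter. In OE, WT as control gave ZEB1 -0.21, SNAI2 -0.14, GRHL2 0.0474, ESRP1 0.0358 and TGFB2 -0.0802, and Lipo and WT joined gave SNAI2 -0.0463 and ESRP1 0.00238. In Lipo, SNAI1 ran from -0.20 to 0.33 with a library left out and SNAI2 from -0.50 to 0.33, and both changed sign without WT 1 and KO 1 (-0.20 and 0.33).

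Replicate numbers were not used as pairs in the main fit. Same-numbered KO and WT libraries had positively correlated deviations, of 0.328, 0.0577 and 0.185. Those with unlike numbers ran from -0.238 (KO 3 with WT 1) to 0.092 (KO 3 with WT 2). Between the other groups, same-numbered libraries ran from -0.057 (Lipo 3 with WT 3) to 0.0228 (OE 1 with WT 1). Whether the numbers mark shared batches was not tested. With the number as a block, 3 members were called in KO in either fit, 3 in OE, 3 (groups alone) or 2 in Lipo, and 7 differences. The block gave OVOL1 in KO -0.000125 and -0.0113, SNAI2 in OE -0.23, SNAI1 in Lipo -0.19 and -0.0790, and SNAI2 in Lipo 0.33 and 0.0460. With groups alone, the block called 3368 genes in KO and 3684 in Lipo, against 1216 and 749 with groups alone and no block. With all 10 libraries it called 2874 in KO and 850 in Lipo, against 1992 and 586 without it.

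Over all genes, 1125 to 2297 were called in KO, 673 to 2657 in OE and 34 to 977 in Lipo with a library left out, from 1992, 1950 and 586. With only the groups compared they were 1216, 5664 and 749. OE with WT as control had 3953. Without WT 1 and KO 1, OE had 3477 and Lipo 1157, and Lipo had 1100 with no filter and 992 by DESeq2. The difference of effects had 2632, 1373 to 3023 with a library left out, and 5921 with WT as the control for both effects. Depth limits the precision of VIM, at 15 to 119 reads a library, SNAI2, at 44 to 498, and ZEB1, at 74 to 183. For SNAI2 the spread between WT libraries was a further limit (12.9 ± 7.48 CPM, SD, n = 3).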
